A study of Mus musculus and synthetic RNA with 74 samples.

Results

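The 9 genes described here, Gata6, Gata4, Sox17, Sox7, Pdgfra, Dab2, Col4a1, Lama1 and Lamb1, are marker genes of the primitive endoderm, and they were taken by name from the 21890 genes listed at either of 2 stages of mouse development. They were followed in single embryos that were whole, so the values describe the morula or the blastocyst and not isolated primitive endoderm cells. All embryos came from superovulated Mettl16+/- females mated with Mettl16+/- males. Their genotype at Mettl16, the gene of an m6A methyltransferase, was wild type (WT), heterozygous (HET) or knockout (KO), and the line described by the authors for the knockout carries a triple-stop cassette in exon 3. At E2.5, the morula stage, there were 5 WT, 14 HET and 12 KO embryos, and at E3.5, the blastocyst stage, there were 18 WT, 9 HET and 12 KO embryos. The deposited tables give 1 mean per gene over all embryos of a stage, so the genotypes are pooled in every value below, no spread between embryos can be given and no difference was tested. WT embryos made up 16.1% of the E2.5 mean and 46.2% of the E3.5 mean, so stage and genotype mix cannot be told apart. The targeted gene Mettl16 had a mean of 778 normalised counts at E2.5 and 669 at E3.5 in these pools, which checks no label.

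The primitive endoderm is the layer of the inner cell mass that comes to face the blastocyst cavity, and it gives rise to the parietal and visceral endoderm of the yolk sacs. Its precursors are set apart from the epiblast by FGF signalling and the transcription factor GATA6, after which GATA4, SOX17 and SOX7 come on, the receptor PDGFRA and the endocytic adaptor DAB2 mark the committed cells, and the cells lay down a basement membrane of laminin and type IV collagen. Several of these genes are also known to be read in the trophectoderm or throughout the early embryo, so a level in a whole embryo does not name the cells that hold it.

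Of the 9 genes, 6 were over 2-fold higher at E3.5 than at E2.5, namely Sox17, Pdgfra, Dab2, Col4a1, Lama1 and Lamb1. Gata4 was over 2-fold lower, and Gata6 and Sox7 lay within 2-fold. For this comparison each mean was scaled to a stage total of 1000000, since each stage had been normalised by itself, and 0.1 was added to this scaled level before taking log2. A change of this size was common: of 14155 genes with a mean of at least 10 normalised counts in either stage, 34.2% were over 2-fold higher and 19.0% over 2-fold lower at E3.5. The median difference was 0.40 (log2) over these genes and 2.73 over the 9 genes. Of the 9, 8 reached the minimum of 10, Sox7 did not, and Lama1 reached it through E3.5 alone. In whole embryos, a change in the number of cells that hold an RNA and a change in the RNA per cell cannot be told apart.

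**Figure D1:**
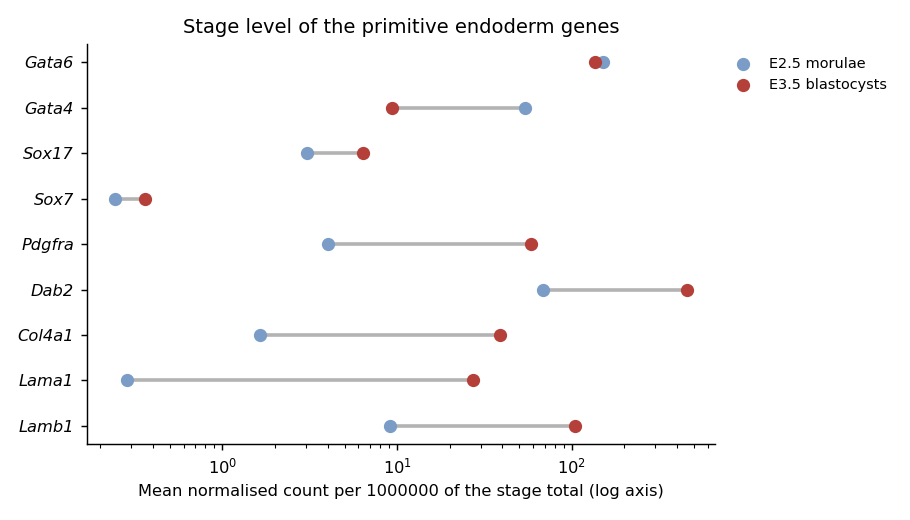
Level of each gene at E2.5 (blue) and E3.5 (red), as the scaled level (mean normalised count per 1000000 of the stage's total) on a log axis, 1 point per stage and no error bar, as each point is 1 pooled mean. Lama1 covers the widest span, from a scaled level of 0.286 to 27.1, and Gata4 is the gene whose E3.5 point lies well to the left of its E2.5 point.

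**Figure D2:**
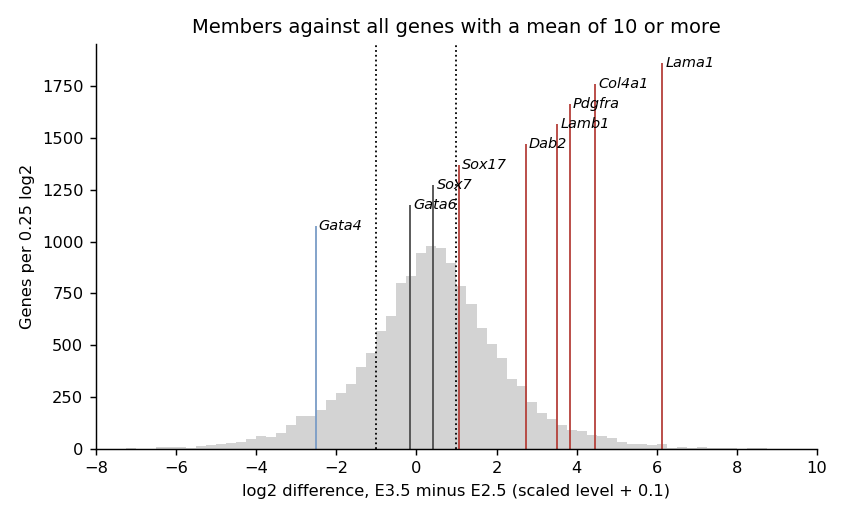
Differences between the stages, E3.5 minus E2.5 on the log2 scale, for the 14155 genes with a mean of at least 10 (grey bars, genes per 0.25 log2) and for the 9 genes (lines with names), with dotted lines at 2-fold. The genes of the basement membrane and Pdgfra stand in the right tail and Gata4 in the left.

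Gata6, the factor that starts the primitive endoderm programme, had a mean of 3569 normalised counts at E2.5 and 3676 at E3.5. The scaled levels were 151 and 135, a log2 difference of -0.16. Its exons did not share this flat course. Its transcript NM_010258 has 7 exons. Exon 1, a 5′ UTR exon, went from 156 to 10.9 normalised counts, and exon 2, which holds 1117 of the coding bases, went from 1181 to 261. The middle exons 3 to 6 together went from 2232 to 1158, while the last exon, with the end of the coding sequence and the 3′ UTR, went from 1789 to 2383. Scaled to the total of all exons, the last exon was 0.66 higher (log2) and the 6 exons before it were together 1.07 lower. The level of Gata6 thus lay within 2-fold over the whole gene and past 2-fold, downward, without its last exon. An annotated antisense RNA, 1010001N08Rik, overlaps up to 58 of the 234 bases of exon 1, and the libraries do not keep the strand.

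Gata4, a partner of GATA6 in endoderm, had a mean of 1268 normalised counts at E2.5 and 253 at E3.5, with scaled levels of 53.8 and 9.32, which was 5.78-fold lower at E3.5. The transcript NM_001310610 (mm10 chr14:63198914-63245271, minus strand) has 7 exons, and their profile changed more than their sum. At E2.5 exon 2, with the start of the coding sequence, had 196 normalised counts and exons 3 to 6 had between 87.1 and 132. At E3.5 exon 2 had 5.26 and exons 3 to 6 had between 1.11 and 2.32. The last exon, with 177 coding bases and 1461 bases of 3′ UTR, went from 917 to 222 and so held 60.1% of the exon counts at E2.5 and 94.9% at E3.5. On the scaled log2 measure the difference was -5.07 for the 6 earlier exons together and -1.78 for the last exon. The start of that last exon is shown because 94.9% of the Gata4 exon counts at E3.5 lay in it (GRCm38.p6 chr14:63200522-63200581, minus strand), with the exon's first 30 bases in capitals.
Gata4 exon 7 start: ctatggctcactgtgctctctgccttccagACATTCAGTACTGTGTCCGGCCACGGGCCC
The introns differed among themselves. Intron 2, of 35777 bases, went from 77.0 to 136 normalised counts and intron 1 from 4.92 to 13.6, while intron 6 went from 21.6 to 0.337. The density of all Gata4 introns went from 2.44 to 3.52 normalised counts per kb, while that of its exons went from 447 to 68.6. As a share of the exon density, the intron density thus went from 0.546% to 5.12%, mostly through the lower exon density. By the median intron this share went from 0.257% to 0.530%. Intron 2 held 73.4% of the intron counts at E2.5 and 90.3% at E3.5. An annotated Gata4 exon of 243 bases in GENCODE vM21 lies inside intron 2, and its part in that count was not tested.

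Sox17, a factor of the endoderm lineage, had a mean of 71.5 normalised counts at E2.5 and 174 at E3.5, which was 2.11-fold higher after scaling (log2 1.05). This is just past the 2-fold line, and 2-fold was not reached when the stages were set equal at the median gene (log2 0.87), with a pseudocount of 1 (0.87) or without the 100 highest genes in the total (0.99). Of the 5 exons of NM_011441 (mm10 chr1:4490928-4497354, minus strand), the first 3, all 5′ UTR, held 1.78 normalised counts together at E2.5 and 0.339 at E3.5. Exon 4, which holds the start of the coding sequence, went from 21.0 to 11.9, and the last exon, with 953 coding bases, went from 59.5 to 142. The higher level at E3.5 therefore came from the last exon, which held 72.3% of the exon counts at E2.5 and 92.0% at E3.5. Without it the scaled difference was -0.53 (log2).

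Sox7, a relative of SOX17 that comes on late in the layer, was close to the floor. Salmon, which assigns reads to transcripts, gave it 5.75 normalised counts at E2.5 and 9.79 at E3.5, while the 2 exons of NM_011446 (mm10 chr14:63943706-63950732, plus strand) held 1.79 and 1.05 when counted on the genome. The 2 counts differ in direction as well as in size, and no direction is given for this gene.

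In the families of these factors, Gata1 was at 2691 normalised counts at E2.5 and 204 at E3.5, Gata2 was at 27.3 and 536, and Gata3, a trophectoderm factor, was at 511 and 9266. All 6 Gata genes, Gata4 and Gata6 included, passed the minimum of 10. Of these, 2 were over 2-fold higher and 2 over 2-fold lower, against 34.2% and 19.0% of all genes. Of the 19 Sox genes listed, Sox17 and Sox7 included, 7 passed, with 3 higher and 3 lower against the same shares. The largest differences among them were those of Sox15 (7668 and 662 normalised counts), Sox6 (14.2 and 213) and Sox2 (13.6 and 165).

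Pdgfra, the receptor for platelet-derived growth factor A that marks primitive endoderm cells, had a mean of 94.3 normalised counts at E2.5 and 1575 at E3.5. The scaled level was 14.5-fold higher at E3.5 (log2 3.82), above 96.5% of all genes that passed the minimum. NM_001083316 (mm10 chr5:75156166-75198204, plus strand) has 23 exons. The difference was larger toward the 3′ end: exons 1 to 12 together were 2.25 higher (log2), exons 13 to 22 were 3.62 higher and the last exon, which is mostly 3′ UTR, was 4.56 higher. These stretches were chosen after the profile was seen. The gene has a choice of first exons. The one of NM_011058 (chr5:75152291-75152457) was listed at 0 normalised counts at E2.5 and at 6.53 at E3.5, while the downstream one of NM_001083316 (chr5:75156166-75156349) had 1.54 and 0.678. At E3.5 the upstream exon thus held more counts than the downstream exon, and at E2.5 both were near or at 0. The promoter window of the upstream exon is printed for this reason (RefSeq, GRCm38.p6 chr5:75152001-75152300, plus strand). It has no letters in capitals, since the GATA motif (AGATAA, likewise with a leading base changed to give TGATAA, or with a closing base changed to give AGATAG, or both changed to give TGATAG) and the SOX motif (ACAAT) do not occur in it on either strand.
Pdgfra upstream promoter: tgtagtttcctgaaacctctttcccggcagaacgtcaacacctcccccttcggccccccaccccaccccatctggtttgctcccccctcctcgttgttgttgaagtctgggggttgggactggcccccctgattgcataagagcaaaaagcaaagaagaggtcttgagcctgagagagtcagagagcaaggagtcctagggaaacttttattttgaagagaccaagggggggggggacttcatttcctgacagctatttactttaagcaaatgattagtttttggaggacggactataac
Of 32851 promoter windows of this length, 29.8% hold one of the GATA motifs and 31.0% the SOX motif, so a window without them is common. Windows were on hand for Pdgfra, Dab2, Col4a1 and Lamb1. The windows of Col4a1 (chr8:11312777-11313076, minus strand) and Lamb1 (chr12:31265043-31265342, plus strand) also hold neither.

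Dab2, the adaptor that carries cargo into endoderm cells by endocytosis, was the most abundant of the 9 genes at E3.5 per length and was already at 1612 normalised counts at E2.5. At E3.5 the mean was 12347, which was 6.65-fold higher after scaling (log2 2.73). NM_023118 (mm10 chr15:6386748-6440712, plus strand) has 15 exons, and 14 of them were over 2-fold higher at E3.5. The exception was exon 10 (chr15:6429296-6429949), a wholly coding exon of 654 bases that is present in 2 of the 5 RefSeq transcripts of the gene. It went down from 212 to 46.0 normalised counts, while exon 9 next to it went up from 109 to 485 and exon 11 from 188 to 387. Per kb, exon 10 stood at 323 at E2.5 and 70.3 at E3.5. That is 21.9% of the mean of exons 9 and 11 at E2.5 and 1.38% at E3.5. Exons 9 and 11 are shorter, at 63 and 154 bases, and short exons may read high per kb. Exon 12, of 636 bases and so close in length to exon 10, stood at 789 per kb at E2.5 and 3326 at E3.5. As background, Dab2 RNA is known to be spliced into a long form with this central exon and a short form without it.

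Across all genes with at least 5 exons and 100 normalised exon counts in both stages, 1.09% of 80184 exons with a mean of at least 10 lay more than 2 (log2) below the median exon of their gene in the stage difference, and 3.05% lay more than 2 above. Dab2 exon 10 lay at -4.25 from that median. Of the 9 genes, only Gata6, Gata4, Pdgfra, Dab2 and Lamb1 had exons that met these limits, 74 in all. Sox17, Sox7, Col4a1 and Lama1 had none. Among the 74 exons the other one below was Gata6 exon 1, at -2.58, and 8 lay above, namely Gata4 exon 7, Pdgfra exon 23 and exons 28 to 33 of Lamb1.

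**Figure D3:**
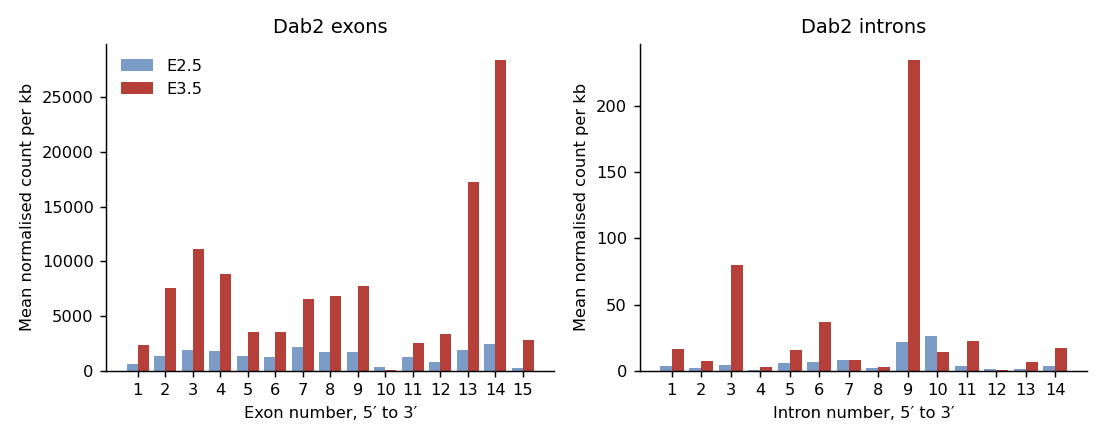
Mean normalised count per kb of each Dab2 exon (left) and intron (right) in order from 5′ to 3′, at E2.5 (blue) and E3.5 (red), on linear axes that start at 0. Exon 10 is the exon with a lower bar at E3.5 (70.3 against 323), and intron 9 is the intron with the highest bar (235 at E3.5).

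The intron before exon 10 stood out as well. Intron 9, of 4598 bases, went from 99.4 to 1081 normalised counts, and at E3.5 it held 57.6% of the counts of all Dab2 introns and was denser per kb than exon 10 (235 against 70.3). Intron 10, on the other side, went from 26.6 to 14.5. GENCODE vM21 places further Dab2 exons inside intron 9 (chr15:6427331-6427765 and chr15:6427521-6427765, both on the same strand), which RefSeq transcripts of the deposited table do not hold. Another GENCODE exon of the gene starts with exon 9 and runs 327 bases into intron 9 (chr15:6424635-6425024). Their part in the intron 9 count was not tested.

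Dab2 also has 2 annotated starts. The upstream first exon of NM_001008702 (chr15:6299789-6299899) was listed at 0 normalised counts at E2.5 and 0.0320 at E3.5, and the downstream first exon shared by the other 4 transcripts (chr15:6386748-6386932) had 115 and 432. The 2 promoter windows are printed beside each other because counts were found at one start and hardly any at the other (RefSeq, GRCm38.p6 chr15:6299539-6299838 and chr15:6386498-6386797, plus strand), with matches to the GATA or SOX letters in capitals.
Dab2 upstream promoter: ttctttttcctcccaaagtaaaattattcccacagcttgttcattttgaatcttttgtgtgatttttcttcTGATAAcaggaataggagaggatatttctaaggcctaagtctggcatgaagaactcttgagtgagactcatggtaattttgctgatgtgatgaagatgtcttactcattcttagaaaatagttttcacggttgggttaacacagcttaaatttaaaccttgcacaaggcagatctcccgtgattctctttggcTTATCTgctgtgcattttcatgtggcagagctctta
Dab2 downstream promoter: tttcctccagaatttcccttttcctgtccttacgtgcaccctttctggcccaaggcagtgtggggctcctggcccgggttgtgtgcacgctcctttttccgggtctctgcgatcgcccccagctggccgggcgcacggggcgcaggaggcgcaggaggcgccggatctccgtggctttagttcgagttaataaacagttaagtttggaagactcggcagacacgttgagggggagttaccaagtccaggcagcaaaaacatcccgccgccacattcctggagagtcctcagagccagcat
The upstream window holds TGATAA on the plus strand and AGATAA on the minus strand, and the downstream window, of the start with counts, holds none of the motifs. The upstream window has 37.7% G and C and the downstream one 59.3%.

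The 3 basement membrane genes showed the largest differences among the 9 together with Pdgfra. Lama1, which encodes the laminin alpha 1 chain, had a mean of 6.75 normalised counts at E2.5 and 736 at E3.5. The scaled level was 94.7-fold higher (log2 6.14). With a pseudocount of 1 the difference was 4.45 (log2), as the E2.5 level was low. Of the 63 exons of NM_008480 (mm10 chr17:67697265-67822645, plus strand), 61 had under 1 normalised count at E2.5 and none did at E3.5. Lama1 introns went from 0.379 to 718 normalised counts, which moved their density from 0.248% to 5.18% of the exon density. Intron 3, of 20199 bases, was listed at 0 at E2.5 and at 275 at E3.5.

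Lamb1, which encodes the laminin beta 1 chain, had a mean of 214 normalised counts at E2.5 and 2839 at E3.5, 11.5-fold higher after scaling (log2 3.51). NM_008482 (mm10 chr12:31265294-31329639, plus strand) has 33 exons. Exon 13 had 4.88 normalised counts at E2.5 and 3.65 at E3.5, and exon 16 had 4.51 and 5.05. Exon 30 had 29.8 and 699. Exons 24 to 33 held 63.8% of the exon counts at E2.5 and 91.2% at E3.5, so most of the higher level lay in the 3′ part. This stretch was chosen after the profile was seen.

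Col4a1, which encodes the alpha 1 chain of type IV collagen, had a mean of 38.9 normalised counts at E2.5 and 1050 at E3.5, 23.4-fold higher after scaling (log2 4.47). The profile over the 52 exons of NM_009931 (mm10 chr8:11198423-11312826, minus strand) was high at both ends. Exons 1 to 13 had 17.4 normalised counts per kb at E2.5 and 104 at E3.5, exons 14 to 42 had 4.58 and 8.27, and exons 43 to 52 had 18.9 and 424. These bounds too were set after the profile was seen. Exon 1 overlaps an exon of Col4a2, read from the opposite strand, by 22 bases.

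**Figure D4:**
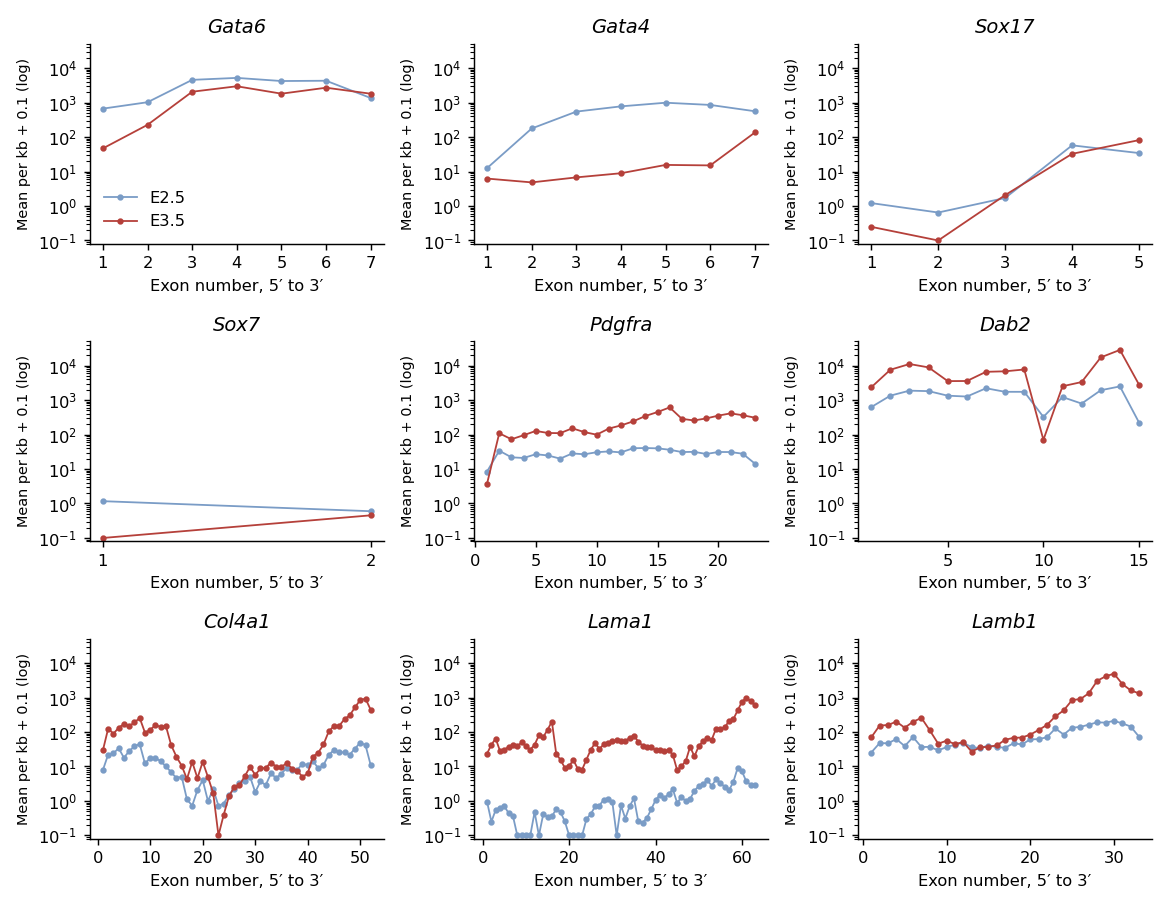
Mean normalised count per kb, plus 0.1, of each exon on a log axis against exon number from 5′ to 3′, at E2.5 (blue) and E3.5 (red), 1 panel per gene. Gata4 has both lines closest at the ends, Dab2 has a dip at exon 10, and Col4a1, Lama1 and Lamb1 climb toward their last exons at E3.5.

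The other laminin chains were measured beside them. Of these 9 genes, 8 passed the minimum, with 3 over 2-fold higher and 2 lower, against 34.2% and 19.0% of all genes. Lama3 went from 5.65 to 592 normalised counts and Lamc1, the gamma 1 chain that pairs with the chains of Lama1 and Lamb1, from 169 to 2361. Of 6 type IV collagen genes only Col4a1 and Col4a2 passed, and Col4a2 went from 30.9 to 618.

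Counts toward the 3′ end were not particular to these genes. Over 7693 genes with at least 3 exons and 100 normalised exon counts in both stages, the last exon held a larger share at E3.5 in 91.1% of genes, with a median share of 20.5% at E2.5 and 34.5% at E3.5. The last exon moved over 2-fold more toward E3.5 than the other exons did in 54.9% of genes, and the median of that difference was 1.10 (log2). Of the 9 genes, 5 met these limits. Their values were 3.28 for Gata4, above 99.2% of all genes, 1.73 for Gata6, 1.43 for Pdgfra, 1.40 for Dab2 and 0.81 for Lamb1. Gata4 is thus far out in this distribution, and the other 4 lie between its 36.8th and its 77.0th percentile. Lama1 was too low at E2.5 for the comparison, with 0.983 normalised counts in its last exon, which held 7.84% of its exon counts at E2.5 and 18.5% at E3.5. Since the 2 stages differ this way across the transcriptome, the part of the shift in each gene that belongs to the stage or to the libraries cannot be told apart.

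**Figure D5:**
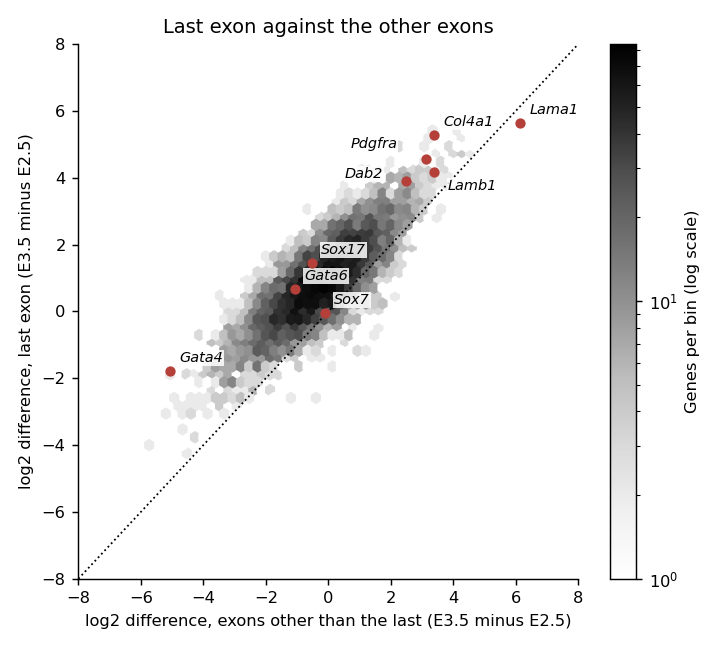
Difference between the stages (E3.5 minus E2.5, log2) of the last exon against that of all other exons of a gene, for 7693 genes (grey bins, darker where more genes lie) and the 9 genes (red), with a dotted line of equality. Most genes lie above the line, Gata4 lies far to the left at -5.07 and -1.78, and Lama1 lies below the line only through the 0.1 added to a last exon of 0.983 normalised counts at E2.5.

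Introns were read in the same way. The density of introns relative to exons was higher at E3.5 in 80.5% of 7693 genes, with a median of 0.717% at E2.5 and 1.29% at E3.5. Only 5 of the 9 genes met the limits of this comparison, and the density was higher in all 5. Sox17, Sox7, Col4a1 and Lama1 did not meet them. With these included it was higher in 7 of the 9 genes. The exceptions were Sox17 (11.1% and 6.32%) and Sox7 (11.9% and 8.71%). Gata6 went from 1.08% to 2.22%, Lamb1 from 0.461% to 1.36% and Pdgfra from 1.52% to 2.17%. GENCODE vM21 places exons of the same gene inside introns of these genes too. Examples overlap Gata6 intron 2 by 2394 bases, Lamb1 intron 2 by 1994 and Pdgfra intron 16 by 989. Their part in the intron counts was not tested. Dab2 (0.800% and 0.965%) and Col4a1 (1.42% and 1.53%) moved little. By the median intron Dab2 was lower at E3.5 (0.522% and 0.381%), and 6 of the 9 genes were higher. At E3.5 the 90th percentile over the 7693 genes was 6.04%. Sox17 (6.32%) and Sox7 (8.71%) were above it, both too low in counts for the comparison. The others, Gata4 and Lama1 included, were below it.

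Per kb of exon, the order at E2.5 was Gata6 (1678 normalised counts per kb), Dab2 (676), Gata4 (447), Lamb1 (79.9), Pdgfra (21.0), Sox17 (20.2), Col4a1 (12.2), Lama1 (1.32) and Sox7 (0.547). At E3.5 the order was Dab2 (3936 normalised counts per kb), Gata6 (1194), Lamb1 (735), Pdgfra (259), Col4a1 (189), Lama1 (120), Gata4 (68.6), Sox17 (37.8) and Sox7 (0.322). The factor genes Gata6 and Gata4 thus stood at places 1 and 3 in the morula, and the membrane, receptor and adaptor genes took most of the upper places in the blastocyst. By the median exon the order at E3.5 differed, with Pdgfra (184 normalised counts per kb) above Lamb1 (154), then Lama1 (42.6), Col4a1 (19.2) and Gata4 (8.82), and 4 genes in place of 6 reached 100 per kb. With no value per embryo it cannot be said which neighbours in either order differ beyond their spread. The sum over exons was larger than the gene's Salmon mean for Gata6 (5358 against 3569 at E2.5). This was not particular to Gata6, as the E2.5 total over all genes was also larger for exons (4.11e+07 against 2.36e+07). The exon and Salmon counts are thus on unlike scales. Whether a read that touches several exons was counted in each is not given in the sources used here, and short exons would then read high per kb.

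Other lineage genes put these values in context. Of 28 other primitive or visceral endoderm genes, 22 passed the minimum of 10, with 14 over 2-fold higher and 3 lower at E3.5 and a median difference of 2.15 (log2). The largest were Aqp8, a water channel gene (0.0375 and 889 normalised counts), Lrp2, which encodes the endocytic receptor megalin (330 and 30711), and Serpinh1, a collagen chaperone gene (0.594 and 247). Aqp8 and Serpinh1 passed the minimum through E3.5 alone, and their place depends on the 0.1 added. Of 15 trophectoderm genes 12 were higher and 2 lower, with a median of 4.52. Of 15 epiblast genes 14 passed, with 5 higher, 2 lower and a median of 0.38. Over all genes that passed the minimum, 34.2% were higher and 19.0% lower, with a median of 0.40. The epiblast counts lay near these shares. In the trophectoderm list Dppa1, Tspan8 and Id2 moved the most, and in the epiblast list Bmp4, Sox2 and Nanog did. A higher level of an endoderm gene at E3.5 was thus seen beside a higher level of most trophectoderm genes.

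Genes of other cells that an embryo sample could hold were measured too. The 7 listed cumulus or granulosa genes summed to 31.1 normalised counts at E2.5 and 135 at E3.5, nearly all from Star (26.8 and 128), and 4 of them, Amh, Fshr, Inha and Foxl2, were under 1 at both stages. The 4 oviduct and uterus genes summed to 496 and 127, with Ovgp1 at 320 and 25.3, Ltf at 129 and 0.0363 and Pax8 at 28.1 and 4.13. The other gene of this list, Muc1, was higher at E3.5 (19.3 and 97.7) and made up most of the E3.5 sum. The 4 blood genes summed to 50.2 and 14.6, mostly Hba-a1 (49.6 and 12.0). The 5 oocyte genes were all over 2-fold lower at E3.5, against 19.0% of all genes that passed the minimum. They summed to 2096 and 142, the most changed being Oosp1, Zp3 and Bmp15. Gata4 and exons 1 and 2 of Gata6 were lower at E3.5, as were the 5 oocyte genes and 3 of the 4 oviduct and uterus genes, whose part in these results was not tested.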

How the data were processed

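Polyadenylated RNA of single embryos had been amplified with Smart-seq2, which does not keep the strand. According to the methods and the submitters' processing notes, the authors assigned reads to RefSeq transcripts (mm10) with Salmon 0.7.2, aligned them with STAR, counted exons and introns with featureCounts and normalised with DESeq2 1.18.1. The deposited signal is the mean normalised count over all embryos of a stage. The tables also hold the authors' fold changes and adjusted p-values between genotypes, which were not used, and no value per embryo. The paper's supplement lists the number of reads of each embryo's library, and depth differed between embryos. These read numbers were not used here, and the part of depth in the pooled means was not tested. The table of the in vitro methylation experiment was not used. The means summed to 23557112 at E2.5 and 27145016 at E3.5. They were scaled to a total of 1000000 with Python 3.11.15, pandas 2.3.3 and numpy 2.4.6, with 0.1 added before log2. Exons were taken from 1 transcript per gene (NM_ entries first, then the one with the most exons, then the longest). The 2-fold call of genes and the call of single exons against the median exon of their gene were tested on simulated data. The other steps were not. All 9 genes are described, and of the other lists the 3 genes with the largest difference are named. The members and lists were chosen with earlier results of these data known. Alternatives were other scalings, pseudocounts, exon sums, single exons and filters. RefSeq and GENCODE vM21 gave sequences and annotation on GRCm38. One sequence is not reported here.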

Additional observations from a re-analysis of the deposited data

How the results depend on the processing

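No paired analysis was possible because the deposited embryo tables hold 1 mean per stage and no value per embryo, and for the same reason no embryo could be left out, no outlier could be looked for and every statement on the members is a description of 2 means. A value was taken as moved when it changed by over 1.5-fold. Under summed exon means, median gene scaling (a shift of 0.18 on the log2 scale), a pseudocount of 1 and a total without the 100 highest genes, the stage difference of the 8 other genes stayed within that limit, and that of Lama1 went to 4.45 with the pseudocount of 1. Sox7, within 2-fold throughout, was at 0.42 and, by exon sums, -0.14. Sox17 lost the 2-fold call under 3 of these settings. The count of members higher past the fold used was 5 or 6 under every setting run, a fold of 4 included. The share of all genes beside it ranged from 16%, at a fold of 4, to 44.3%, with the last exon alone. Using exons other than the last, a setting added after the data were seen, gave -1.07 for Gata6, -5.07 for Gata4, -0.53 for Sox17 (from 1.05), 3.13 for Pdgfra and 3.39 for Col4a1, with 2 members over 2-fold lower beside 28.1% of all genes (22.8% higher). The last exon alone, also added later, gave 0.66 for Gata6, -1.78 for Gata4, 4.56 for Pdgfra, 3.89 for Dab2, 5.28 for Col4a1 and 4.18 for Lamb1. With it 6 members were over 2-fold higher beside 44.3% of all genes, and 1 was lower beside 11.9%. Both of these settings use fewer exons by construction. A fold of 4 left 16% of genes higher and 8.80% lower.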
